A study of Triticum aestivum with 4 samples.

Results

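The core histones H2A and H2B of bread wheat, Triticum aestivum, were followed in developing seed of the genotypes AC Domain and RL4452. The members were found by name: 18 probe sets belonged to genes whose current symbol or synonym contained H2A or H2B, and 39 probe sets without a gene shared a transcript cluster with them. Together these were 57 of the 61115 wheat probe sets on the array. The gene family was taken up with genotype differences of its members already known. The differences between genotypes are therefore given as a description. Counts from the fit over all wheat probe sets are given once beside their background and support nothing about the members.

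AC Domain and RL4452 are the parents of a mapping population, and both were grown in the same field trial as lines of that population. The labels name no treatment other than tagging the spikes at anthesis. Whole developing seeds were taken 5 days later and polyA RNA was prepared from them, so that embryo, endosperm and maternal tissue were measured together. Each genotype had 2 biological replicates with 1 Affymetrix wheat GeneChip array each. The labels do not say whether the replicates came from separate field plots, so any error given here covers only the spread between these samples.

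H2A and H2B are the histones that pair into dimers, and a pair of such dimers flanks the H3 and H4 tetramer in every nucleosome. In plants as in animals most core histone transcripts accumulate in S phase, when newly copied DNA has to be packed, and they are scarce in cells that have stopped dividing. In a young cereal grain the endosperm passes from free nuclear division to cellularisation and further divisions before starch filling, and core histone transcripts are often read as a marker of dividing tissue. In a whole seed, however, a larger share of dividing cells and more histone RNA per cell cannot be told apart.

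All 57 probe sets had a mean signal above the negative control level, an intensity of 22.3, which is the 95th percentile of 23 control probe sets for sequences foreign to wheat. Of all wheat probe sets 59.4% did so. Single intensities of the members ran from 44.3 to 9918. On the log2 scale the median over the members was 11.41 ± 0.11 in AC Domain and 11.69 ± 0.22 in RL4452 (mean ± SD of the array medians, n = 2). The levels of different probe sets are not compared with each other, because probes differ in how strongly they bind.

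Of the 57 probe sets 54 had a higher mean in RL4452 than in AC Domain, as deposited and after quantile normalisation, and 51 after each array was centred on its median. A difference above 0 was found in 58.4% of all wheat probe sets and in 52.5% of those above the negative control level. The median difference of the members was 0.30 on the log2 scale, a fold of 1.23, against 0.05 over all wheat probe sets. Both RL4452 arrays lay above both AC Domain arrays in 39 of the 57, where 24.0% of all wheat probe sets and 21.8% of those above the negative control level did. Both lay below in 0 of 57, where 15.9% of all wheat probe sets did. Past an adjusted p of 0.05 with limma were 0 of 57, against 0.800% of all wheat probe sets (0.224% higher and 0.576% lower in RL4452), or 1.09% with the replicate number as a block. An unadjusted p under 0.05 was found for 7 of 57, all higher in RL4452, against 9.16% in either direction and 3.74% higher. The members were chosen with this contrast in view, so nothing is read from these shares.

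The family fell into 5 transcript clusters, each holding the probe sets of 1 named gene. The array's IDs give the cluster as the first number and the sub-cluster as the second. H2A had 3 named genes, H2A-2, H2A-3 and H2A-9, with 17 probe sets in 13 sub-clusters, 8 of them without a name. H2B had 2 named genes, wcH2B-6 and wcH2B-8, with 40 probe sets in 30 sub-clusters, 31 of them without a name. The reference annotation lists 3 further wheat genes under H2A or H2B names, and these have no named probe set on the array. In its gene order H2A-2 and H2A-3 lie on the same chromosome with 7 annotated genes between them, 3 of which encode proteins.

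Nearly identical histone copies are a limit of the array. The suffix _x_at marks a probe set with some probes that also match other transcripts, and _s_at one whose probes match several. The members held 28 _x_at probe sets, 49.1% of them, where 11.1% of all wheat probe sets carry this suffix, and 2 _s_at probe sets. The remaining 27 were plain _at probe sets. The median difference was 0.32 on the log2 scale over the 28 _x_at probe sets, with 27 higher in RL4452 and the arrays of the genotypes separate in 21. Over the 27 plain ones it was 0.28, with 25 higher and the arrays separate in 17. Over all wheat _x_at probe sets 54.6% were higher and 22.3% had both RL4452 arrays above both AC Domain arrays. Over all wheat probe sets these shares were 58.4% and 24.0%. Whether the suffixes differ was not tested. A signal given under a gene's name may thus include its close copies.

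H2A-2 (LOC732712) had the largest difference of the family. Its only probe set, Ta.29542.1.S1_x_at, measured 155 and 117 in AC Domain and 218 and 274 in RL4452, as intensities of replicates 1 and 2. The genotypes did not overlap, and within each genotype the arrays were also apart. The RL4452 mean was 1.81-fold the AC Domain mean, a log2 difference of 0.86 ± 0.23 (standard error of the fit). Within the replicate 1 arrays the log2 difference was 0.49 and within the replicate 2 arrays 1.23. The gene has no second probe set with which the size could be compared.

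H2A-3 (LOC732713) gave a smaller and less even result in 2 probe sets of sub-cluster Ta.27192.1. Ta.27192.1.S1_at had 1986 and 2252 in AC Domain and 1872 and 2900 in RL4452. Here the genotypes overlapped, since the lowest and the highest array were both RL4452. The log2 difference was 0.14 ± 0.26 (standard error), and without the RL4452 replicate 2 array it turned to -0.18. Ta.27192.1.S1_s_at was dim, with 44.3 and 53.9 in AC Domain and 61.9 and 59.6 in RL4452. Its groups did not overlap, and its log2 difference was 0.31 ± 0.18 (standard error), or 0.17 without AC Domain replicate 1.

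H2A-9 (LOC732714), also listed as TH274, was covered by 6 named probe sets, and each of them had a higher mean in RL4452. Ta.27657.6.S1_x_at gave 7066 and 7725 in AC Domain and 8822 and 9918 in RL4452. Ta.27657.7.S1_x_at gave 4088 and 4851 in AC Domain and 5445 and 6918 in RL4452. In both probe sets the genotypes were separate and the RL4452 replicate 2 array was the brightest. Their log2 differences were 0.34 ± 0.17 and 0.46 ± 0.21 (standard error), and the 6 probe sets ranged from 0.21 to 0.46 with a median of 0.34. Both RL4452 arrays were above both AC Domain arrays in 5 of the 6, the exception being Ta.27657.14.S1_s_at. Of all wheat probe sets 24.0% had this. Averaged over the 6, the log2 difference was 0.33, falling to 0.19 without RL4452 replicate 2 or 0.21 without AC Domain replicate 1, the array that was lowest in all 6.

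The 8 unnamed probe sets of the H2A-9 cluster Ta.27657 had a median log2 difference of 0.33, close to that of the named ones. All 8 were higher in RL4452, against 58.4% of all wheat probe sets. Both RL4452 arrays lay above both AC Domain arrays in 4 of the 8, against 24.0% of all wheat probe sets, and 4 overlapped. Log2 differences of the 8 ran from 0.03 in Ta.27657.3.S1_at to 0.56 in Ta.27657.5.S1_at, both named here after their values were seen. Ta.27657.5.S1_at had 1267 and 1090 in AC Domain and 1738 and 1734 in RL4452, so that the RL4452 arrays nearly coincided above both others. Ta.27657.3.S1_at had 1318 and 1092 in AC Domain and 1477 and 1021 in RL4452. In that probe set the replicate 1 arrays were brighter than the replicate 2 arrays in both genotypes, and the genotypes overlapped. Its log2 difference was 0.16 within replicate 1 and -0.10 within replicate 2, and it was below 0 after median centring. Over the whole cluster all 11 sub-clusters had a mean difference above 0 as deposited.

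**Figure D1:**
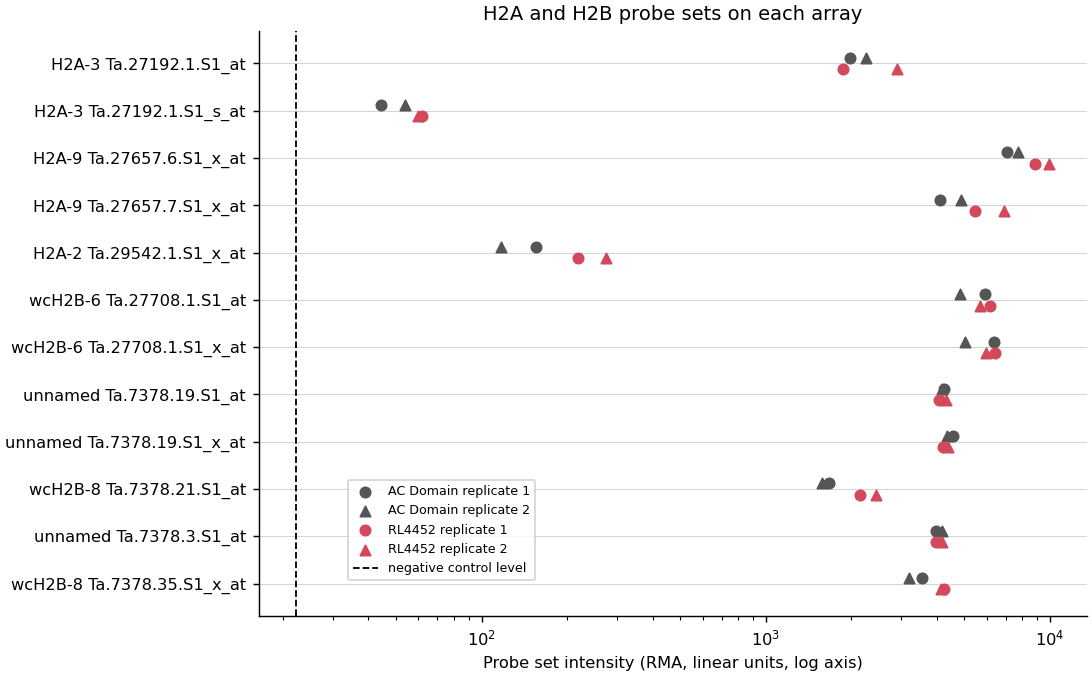
Intensity of 12 H2A and H2B probe sets on each of the 4 arrays, on a log axis in linear RMA units; grey symbols are AC Domain, red symbols RL4452, circles replicate 1 and triangles replicate 2, and the dashed line is the negative control level of 22.3. The red symbols of H2A-2, both H2A-9 probe sets and both wcH2B-8 probe sets lie to the right of the grey ones, while those of wcH2B-6 and of the 3 unnamed probe sets overlap them.

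wcH2B-6 (LOC543183) had a mean log2 difference of 0.13 over its 2 probe sets, the smallest of the 5 named genes with all 4 arrays, though H2A-3 was smaller without RL4452 replicate 2 (0.08 against 0.19) and without AC Domain replicate 1 (0.11 against 0.29). Ta.27708.1.S1_at had 5886 and 4823 in AC Domain and 6153 and 5655 in RL4452. Ta.27708.1.S1_x_at had 6380 and 5039 in AC Domain and 6385 and 5967 in RL4452. In both probe sets the genotypes overlapped, because AC Domain replicate 1 was brighter than RL4452 replicate 2, while AC Domain replicate 2 was the dimmest array. The log2 differences were 0.15 ± 0.19 and 0.12 ± 0.19 (standard error), which is below 1 standard error in each. Without AC Domain replicate 2 the mean of both turned to -0.02.

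wcH2B-8 (LOC543184) had 7 named probe sets, and in all 7 both RL4452 arrays lay above both AC Domain arrays. Of all wheat probe sets 24.0% had this, and of those above the negative control level 21.8%. The margin was narrow in some. In Ta.7378.18.S1_x_at the lower RL4452 array had 1671 and the higher AC Domain array 1668. In Ta.7378.18.S1_at they had 2094 and 2063. Ta.7378.35.S1_x_at gave 3554 and 3197 in AC Domain and 4234 and 4151 in RL4452. Ta.7378.21.S1_at gave 1668 and 1577 in AC Domain and 2141 and 2436 in RL4452. In both of these probe sets the arrays of a genotype lay closer together than the genotypes did. The log2 differences were 0.31 ± 0.16 and 0.49 ± 0.17 (standard error), and the 7 probe sets ranged from 0.21 to 0.49 with a median of 0.25. Within replicate 1 the median over the 7 was 0.04, and within replicate 2 it was 0.44, and in all 7 the replicate 2 arrays gave the larger difference.

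The cluster of wcH2B-8, Ta.7378, was the largest of the family, with 38 probe sets in 29 sub-clusters. Log2 differences in this cluster ran from -0.06 to 0.58. Among its 31 unnamed probe sets 28 had the higher mean in RL4452, and 21 had both RL4452 arrays above both AC Domain arrays. Over all wheat probe sets 58.4% had the higher mean in RL4452 and 24.0% had both its arrays above. The largest log2 differences by sub-cluster, given after their values were seen, were 0.58 in Ta.7378.6, 0.57 in Ta.7378.14, 0.55 in Ta.7378.29 and 0.55 in Ta.7378.30. Ta.7378.30.S1_x_at had 3954 and 4213 in AC Domain and 5703 and 6242 in RL4452, and its log2 difference was alike within replicate 1 (0.53) and within replicate 2 (0.57). Ta.7378.6.S1_at had 859 and 882 in AC Domain and 1068 and 1581 in RL4452, and its difference lay mainly within replicate 2 (0.84, against 0.31 within replicate 1).

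At the other end of the same cluster were sub-clusters with almost equal signal in both genotypes. The 3 members with a lower mean in RL4452 all belonged here, to sub-clusters Ta.7378.19 and Ta.7378.3. Ta.7378.3.S1_at had 3968 and 4174 in AC Domain and 3958 and 4167 in RL4452. The genotypes matched closely there, array for array, with a log2 difference of -0.00 ± 0.16 (standard error). Ta.7378.19.S1_at had 4243 and 4184 in AC Domain and 4067 and 4316 in RL4452, a log2 difference of -0.01 ± 0.16. Ta.7378.19.S1_x_at had 4569 and 4356 in AC Domain and 4191 and 4395 in RL4452, a log2 difference of -0.06 ± 0.16. In both the genotypes overlapped. Ta.7378.32.S1_x_at, named after its values were seen, had 5216 and 5221 in AC Domain and 5273 and 5275 in RL4452, which counts as separate arrays although the log2 difference was 0.02.

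The genotype difference was also followed by sub-cluster. Of the 43 sub-clusters 14 held more than 1 probe set, and in all 14 these had differences of the same sign as deposited. The log2 range inside a sub-cluster had a median of 0.05 and a maximum of 0.23, in Ta.27657.5. Across sub-clusters the mean log2 difference ran from -0.03 to 0.58 in the Ta.7378 cluster and from 0.03 to 0.46 in the Ta.27657 cluster. Probe sets of a sub-cluster can share probes, so their likeness is not independent evidence, and ranges over different numbers of items are not compared. With 1 value per sub-cluster 41 of 43 were higher in RL4452 as deposited, with a median log2 difference of 0.29. By family the median was 0.33 over the 17 H2A probe sets and 0.27 over the 40 H2B probe sets, and whether the families differ was not tested.

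**Figure D2:**
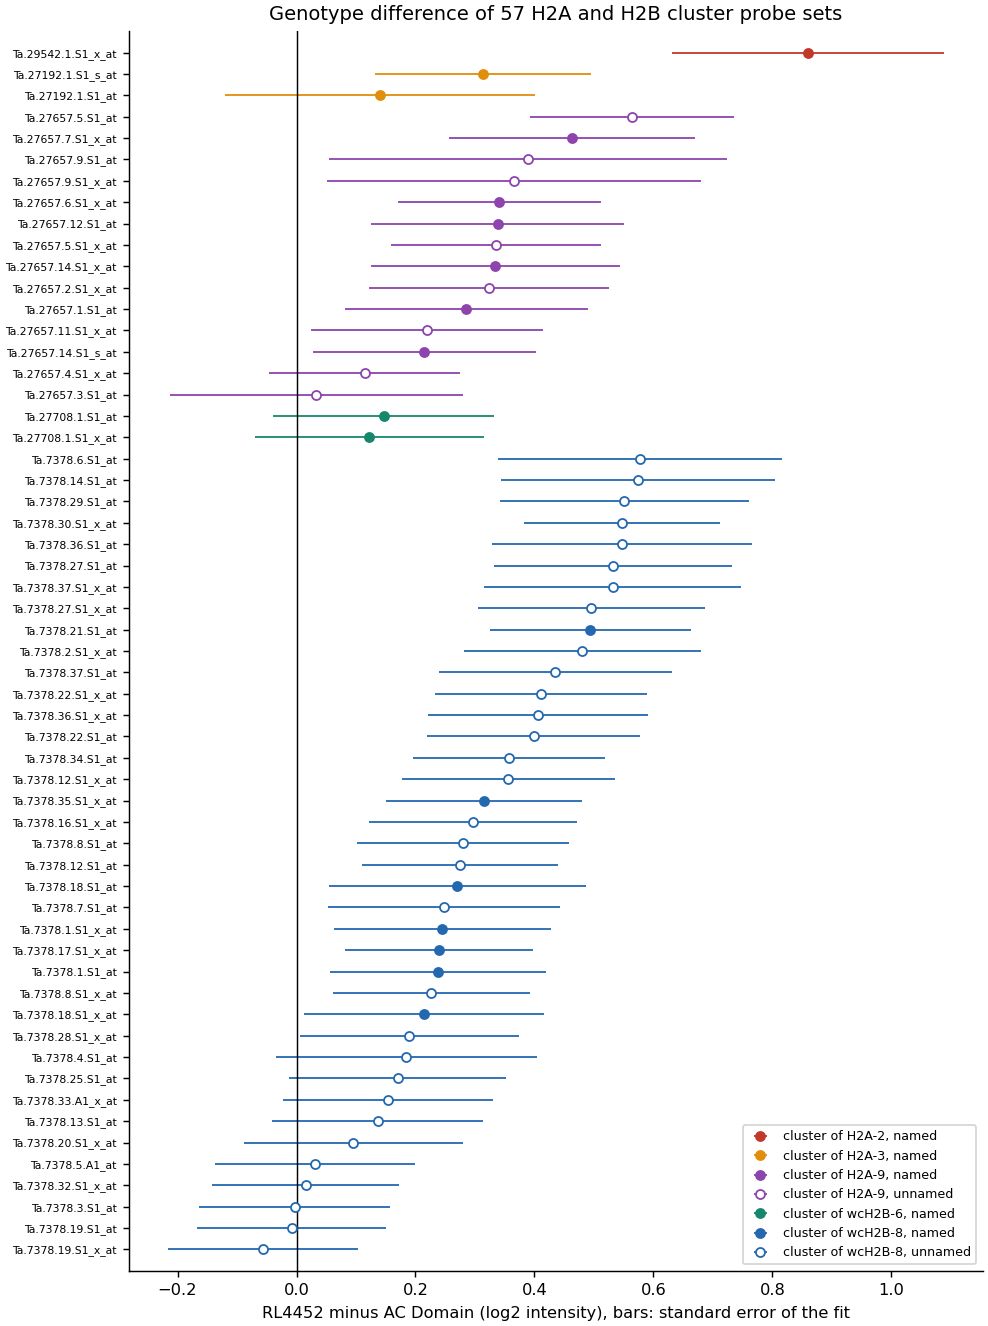
RL4452 minus AC Domain difference in log2 intensity for all 57 probe sets, grouped by cluster and ordered by size within it; bars are the standard error of the fit, filled points have a gene name and open points have none. Of the points 54 lie above 0, H2A-2 stands highest with 0.86, and the cluster of wcH2B-8 runs from 0.58 down to -0.06.

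The RL4452 replicate 2 array stood highest across much of the family. It was the highest of the 4 in 46 of 57 probe sets, where it was the highest in 36.1% of all wheat probe sets. The RL4452 replicate 1 array was highest in 9, and each AC Domain array in 1. Around each probe set's own mean the median log2 value of the members was -0.16 and -0.15 on the AC Domain arrays, 0.05 on RL4452 replicate 1 and 0.28 on RL4452 replicate 2. The difference within the replicate 2 arrays exceeded that within the replicate 1 arrays in 49 of 57, where it did in 56.4% of all wheat probe sets. The members' median log2 differences were 0.38 within replicate 2 and 0.21 within replicate 1, against 0.08 and 0.02 over all wheat probe sets. Within replicate 1 alone RL4452 was the higher in 49 of 57, where it was in 52.9% of all wheat probe sets. Both were above 0 in 47 of 57, where 35.7% of all wheat probe sets had this. Without RL4452 replicate 2, 50 of 57 were higher in RL4452 and the median log2 difference was 0.21. Without RL4452 replicate 1, 54 were higher and it was 0.42.

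Several records of the arrays also differed from array to array, not all in the same order as the members, and their part in this pattern was not tested. The instrument's run file marks the wash of the RL4452 replicate 2 array as aborted, with 0 wash settings recorded against 16 for each other array. Among 7 control genes with probe sets at both ends of the transcript, 5 had both above the negative control level. In all 5 the 3' minus 5' log2 signal was lowest on RL4452 replicate 1 and highest on RL4452 replicate 2. Of all 7 control genes 6 had this order. The exception was ef1a, with 1 probe set below the negative control level, which was lowest on AC Domain replicate 2. For ubiquitin the 3' minus 5' log2 signal was -0.95 and -0.97 in AC Domain and -1.33 and -0.39 in RL4452. The replicate 1 arrays of both genotypes were run under 1 project name and the replicate 2 arrays under another. For 18S rRNA the intensity was 2586 and 1914 in AC Domain against 191 and 432 in RL4452.

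**Figure D3:**
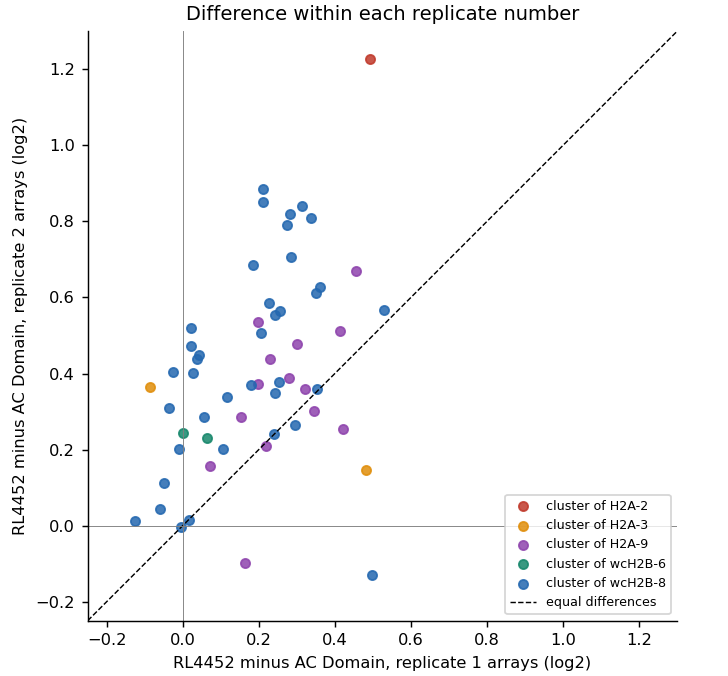
RL4452 minus AC Domain difference in log2 intensity of the 57 probe sets within the replicate 1 arrays (horizontal axis) and within the replicate 2 arrays (vertical axis), coloured by cluster; the dashed line marks equal differences. Of the points 49 lie above the line, and 47 are above 0 on both axes.

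Replicates of AC Domain lay closer together than those of RL4452 in 42 of the 57 probe sets, where this held for 63.6% of all wheat probe sets and 68.2% of those above the negative control level, so the members were near the general share. The median absolute log2 gap between the replicates of AC Domain was 0.09 over the 40 H2B probe sets and 0.25 over the 17 H2A probe sets. In RL4452 it was 0.23 for H2B and 0.32 for H2A. Over all wheat probe sets above the negative control level the gaps were 0.21 in AC Domain and 0.37 in RL4452. In AC Domain replicate 2 was the brighter array in 11 of 14 probe sets of the H2A-9 cluster and in 15 of 38 of the wcH2B-8 cluster. In RL4452 it was the brighter in 11 of 14 and in 35 of 38.

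Other genes of chromatin and cell division were looked for by name. The annotation gave names for 0 probe sets of H3, H4 or linker histones, 0 of DNA replication and 0 of cell cycle genes, so these are not described here. The HMG proteins, which bind and bend DNA in chromatin, had 2 probe sets, both of Hmgb3 (LOC543333). In Ta.30768.3.S1_x_at the log2 difference was 0.64 ± 0.20 (standard error; limma, adjusted p = 0.416), and in Ta.30768.1.S1_x_at it was 0.48 ± 0.17 (adjusted p = 0.501). In both, the RL4452 arrays lay above the AC Domain arrays, which held for 24.0% of all wheat probe sets. With limma 0 of 2 passed the threshold and 2 had an unadjusted p under 0.05, against 0.800% and 9.16% of all wheat probe sets. Both probe sets belong to 1 gene, so they are not independent of each other.

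Tubulins, the subunits of the microtubules that build the spindle and the phragmoplast, had 10 probe sets of 6 genes and no actin gene was found by name. A higher mean in RL4452 was found for 8 of the 10, against 58.4% of all wheat probe sets, with a median log2 difference of 0.04. Both RL4452 arrays lay above both AC Domain arrays in 3 and below in 1, against 24.0% and 15.9%. With limma 0 passed the threshold and 1 had an unadjusted p under 0.05, against 0.800% and 9.16%. The latter was TUBA, an alpha-tubulin, with a log2 difference of -0.65 ± 0.17 (standard error, adjusted p = 0.316 with limma) in Ta.723.1.S1_at. Next by p were TUB probe sets, both with RL4452 arrays above. Their log2 differences were 0.40 ± 0.20 in Ta.28022.1.S1_x_at and 0.31 ± 0.17 in Ta.214.1.S1_x_at (standard error). Whether the tubulins and the histones differ was not tested.

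Markers of other tissues and stages set the context. Endosperm starch and storage genes had 15 probe sets, 6 of them above the negative control level, with a median log2 difference of 0.16 and 1 past the threshold, the granule-bound starch synthase GBSS (log2 difference 2.38; limma, adjusted p = 0.0344). The low-molecular-weight glutenin LMW had 0.46 ± 0.16 (standard error; limma, adjusted p = 0.492) in Ta.160.2.S1_x_at. Late embryogenesis genes had 9 probe sets, 3 above the negative control level, with a median of 0.21 and 0 past the threshold with limma (0 at an unadjusted p under 0.05). The anther genes raftin1a and raftin1b had 4 probe sets, 1 above that level, with a median of 0.08 and 0 past the threshold with limma (0 at an unadjusted p under 0.05). RL4452 had the higher mean in 12 of 15 endosperm, 9 of 9 late embryogenesis and 3 of 4 anther probe sets. Over all wheat probe sets this share was 58.4%. The late embryogenesis median was -0.02 within replicate 1 and 0.50 within replicate 2. The share of these markers in the histone values was not tested.

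The genes whose pattern was most like that of the histones were taken by the smallest root mean square distance over the 4 arrays between a probe set's values, centred on their own mean, and the median centred profile of the members. The search covered 985 probe sets with 1 gene and a mean above the negative control level. The nearest genes were LOC542952 (distance 0.02 on the log2 scale), LOC543407 (0.03), LOC100037602 (0.05) and LOC542774 (0.06). LOC542952 was dim, with intensities of 27.9 and 28.5 in AC Domain and 33.1 and 37.2 in RL4452. The log2 differences of these genes, which follow from the choice by profile, were 0.32, 0.27, 0.38 and 0.32. None of these 4 has a descriptive symbol here, and likeness over 4 arrays says little.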

How the data were processed

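The authors deposited linear probe set intensities, from 4.74 to 25900. The submitters' processing notes name RMA, a method that removes background, equalises probes between arrays and combines them into 1 value; its version and the set of arrays it was run on are not given in the sources used here. Array medians ran from 31.9 to 33.7. Intensities were log2-transformed, and 61115 wheat probe sets (175 controls left out) were fitted with limma 3.58.1 in R 4.3.3 (lmFit, eBayes), with genotype as the only factor and Benjamini-Hochberg adjustment over all of them. Precision is limited by having 4 arrays: the fit has 2 residual and 2.97 prior degrees of freedom, and an exact permutation test of 2 against 2 arrays cannot go below p = 0.333. The fit was also run on simulated data, with noise independent between arrays and changes of 1 log2 unit or more. That setting held no deviation shared by replicate number and no change as small as the members' differences. It therefore says nothing about the fit for the members.

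Names came from the platform annotation through gene identifiers to RefSeq genes (IWGSC CS RefSeq v2.1, no coordinates used). Of the wheat probe sets 1273 had 1 gene, and 59842 were counted as without one. A probe set annotated with several genes would be counted among the latter. Of 771 genes 770 were found. Members and lists were chosen with earlier results of these data known. Lists were name patterns for other histones, DNA replication, cell cycle, HMG proteins, tubulin and actin, endosperm, late embryogenesis and anther; gliadin and glutenin symbols were widened to gli and LMW after the annotation was seen. Named in full, per gene, were the brightest probe set and the one with the largest difference, and unnamed probe sets with the opposite sign or over 1 log2 unit. From each list the rule took up to 3 with the smallest p, of which those given passed an unadjusted threshold, apart from the TUB probe sets. The negative control level used Tag and TrpnX control probe sets; with the 64 reporter probe sets in their place it would be 6.04 on the log2 scale, and 56 of 57 members would lie above it.

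Arrays sharing a replicate number deviated together (r = 0.398 over probe sets, not independent of each other) and carry the same project name in the run files. The files do not say what a project stands for. Alternatives were quantile normalisation, median centring, a filter on dim probe sets, an intensity trend, a pseudocount of 16, the replicate block, each array left out, and other choices of members.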

Additional observations from a re-analysis of the deposited data

How the results depend on the processing

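The number of members past the threshold was 0 under every alternative run with limma, among them the replicate block, where 667 of all probe sets passed (1.09%) against 489 without it. With the replicate block the members' median log2 difference was 0.30 and 54 of 57 were higher. With each replicate number holding 1 array per genotype, the block cannot change a difference, so this says nothing about the pairing. The block changed no call on a member. The members' median was 0.32 after quantile normalisation, 0.24 after median centring, 0.28 with a pseudocount of 16 and between 0.21 and 0.42 when 1 array was left out, with 50 to 55 of 57 higher. Of the named probe sets alone 18 of 18 were higher (17 of 18 without AC Domain replicate 2 or without RL4452 replicate 2), and with 1 value per gene or unnamed sub-cluster 33 of 35; these counts are lower because fewer values enter. After median centring Ta.7378.19.S1_at had -0.07, Ta.7378.19.S1_x_at -0.12 and Ta.7378.3.S1_at -0.06, and Ta.27657.3.S1_at, Ta.7378.32.S1_x_at and Ta.7378.5.A1_at also fell below 0. Over all wheat probe sets limma called 143 with a pseudocount of 16, which shrinks differences of dim probe sets, and from 0 to 1031 with 1 array left out (0 without either AC Domain array, with 2999 and 2441 at an unadjusted p under 0.05); the cause was not tested. With 1 array left out, the lone array of a genotype is assumed to vary like the pair of the other. Signal over background limits the dim H2A-3 probe set Ta.27192.1.S1_s_at most.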
